A study of Arabidopsis thaliana with 24 samples.

Results

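The genes described here are 35 Arabidopsis thaliana nuclear genes whose transcripts were lower 1 h after seedlings were transferred to their light treatment and back near the starting level by 4 h, at both light levels. They were chosen by their values. A member had to be listed in both the HL and the LL table, to reach a mean normalised count of at least 10 in at least one time group of each table, to have a 1 h minus 0 h difference of at most -0.7 and to have a 4 h minus 0 h difference between -0.4 and 0.4, in both tables. Differences are between means of log2(normalised count + 1) over 3 libraries. Of the 10349 genes in both tables, 7664 reached the level minimum in both, and 35 met the whole rule. The 1 h and 4 h values of the members are therefore given as a description, with no test read from them. The 2 h libraries entered the rule only through the level minimum, and HL 2 h against LL 2 h was the comparison open to a test.

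The samples were whole seedlings of *Ch1*, a chlorina mutant in the Col-0 background that lacks chlorophyll b and forms singlet oxygen inside its chloroplasts in the light. The 2 week old plants, raised on medium with sucrose, were equilibrated in water, sorted into holding plates and moved to plates of water. There they were kept under high light (HL, 1000 µE) or low light (LL, 30 µE) for 0, 1, 2 or 4 h. Before that they had grown in a day and night cycle of white light. Its intensity lay between those of LL and HL, so that LL was dimmer than the growth light. All groups carried the *Ch1* mutation, and no wild type was analysed here. Each of the 8 groups had 3 libraries, sequenced by MARS-seq, a method that counts the 3′ ends of transcripts. The labels give no culture, plate or day for a replicate, so the spread between the 3 libraries of a group may be technical in part.

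Library totals were 1617051 to 2070855 counts in the HL series and 1163870 to 2061753 in the LL series. The members had few counts: the median over members and libraries was 23 counts in HL and 19 in LL, and at 1 h it was 17 in HL and 11 in LL. The 0 h libraries of the HL and LL series were both taken before the light treatment. Yet 464 of the 10349 genes (4.48%) differed between HL 0 h and LL 0 h by the edgeR test used throughout (adjusted p under 0.05 and at least 2-fold). None of the 35 members was among them (0 by DESeq2 and 0 at an unadjusted p under 0.05). One library stood apart for the members: replicate 2 of HL 4 h held the highest of the 3 values for 29 of the 35 members, whereas it held the highest value for 34.1% of the 7664 genes over the level minimum. Its summed level of 8 shoot marker genes was 35268 normalised counts, against 46429 and 44912 in replicates 1 and 3 of HL 4 h. The summed level of 7 root markers was 505, against 454 and 499 in replicates 1 and 3. Whether the library differed in its share of shoot was not tested. The 4 h values are given with and without replicate 2.

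As background, many of these genes encode proteins of the cell surface. The plant cell wall is built of polysaccharides and of secreted glycoproteins such as arabinogalactan proteins, the outer wall of the epidermis is covered by a cuticle of cutin and wax, and small secreted lipid transfer proteins carry lipids in the extracellular space. Aquaporins of the PIP family let water cross the plasma membrane. PROPEP proteins are precursors of short peptides that leaf and root cells release on damage and sense through receptor kinases. A bulk seedling library mixes shoot and root, so that fewer cells of a type and less RNA per cell cannot be told apart.

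The members moved together because the rule chose them so. The start regions of the members on which the account turns are printed here as a description. Each is the 250 bases before the annotated gene start, read 5′ to 3′ on the gene's strand from the TAIR10.1 assembly with the RefSeq annotation, and all 35 members matched that annotation. The first pair are the members with the deepest dips, AT4G12510 at chr4:7417874-7418123 (minus strand) and AT3G59370 at chr3:21942572-21942821 (minus strand), with TATAAA on either strand in capitals.
AT4G12510: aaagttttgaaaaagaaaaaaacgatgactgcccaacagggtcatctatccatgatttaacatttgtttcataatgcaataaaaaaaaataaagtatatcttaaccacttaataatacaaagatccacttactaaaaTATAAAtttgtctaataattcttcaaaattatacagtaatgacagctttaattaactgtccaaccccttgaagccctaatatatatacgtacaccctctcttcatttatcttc
AT3G59370: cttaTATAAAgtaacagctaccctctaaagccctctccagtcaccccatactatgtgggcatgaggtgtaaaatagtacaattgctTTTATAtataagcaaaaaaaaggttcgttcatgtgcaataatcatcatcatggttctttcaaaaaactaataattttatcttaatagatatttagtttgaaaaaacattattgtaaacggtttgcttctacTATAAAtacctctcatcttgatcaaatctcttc
The next 3 are PROPEP1 at chr5:25936828-25937077 (plus strand), PROPEP4 at chr5:3122481-3122730 (plus strand) and BDG1 at chr1:24033675-24033924 (minus strand), with the W-box letters TTGACC or TTGACT on either strand in capitals. The W-box is the site bound by WRKY factors.
PROPEP1: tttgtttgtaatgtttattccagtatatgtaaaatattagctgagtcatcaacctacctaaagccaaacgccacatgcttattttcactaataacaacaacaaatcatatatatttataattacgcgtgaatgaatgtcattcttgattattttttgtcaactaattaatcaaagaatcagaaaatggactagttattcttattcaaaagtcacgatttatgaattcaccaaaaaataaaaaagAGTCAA
PROPEP4: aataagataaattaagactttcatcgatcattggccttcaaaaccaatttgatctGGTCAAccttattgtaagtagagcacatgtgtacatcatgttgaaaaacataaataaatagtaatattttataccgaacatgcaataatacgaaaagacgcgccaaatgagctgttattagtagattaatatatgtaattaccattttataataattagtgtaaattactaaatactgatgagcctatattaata
BDG1: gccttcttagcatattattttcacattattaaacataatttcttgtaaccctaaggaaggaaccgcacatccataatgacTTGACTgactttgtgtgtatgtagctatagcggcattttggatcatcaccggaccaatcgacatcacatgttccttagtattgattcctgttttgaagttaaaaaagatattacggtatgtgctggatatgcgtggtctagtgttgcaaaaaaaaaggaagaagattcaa
The last is PIP2;5 at chr3:20301509-20301758 (plus strand), with the site II letters TGGGCC or TGGGCT on either strand in capitals. Site II elements are known from promoters of genes used in growing cells.
PIP2;5: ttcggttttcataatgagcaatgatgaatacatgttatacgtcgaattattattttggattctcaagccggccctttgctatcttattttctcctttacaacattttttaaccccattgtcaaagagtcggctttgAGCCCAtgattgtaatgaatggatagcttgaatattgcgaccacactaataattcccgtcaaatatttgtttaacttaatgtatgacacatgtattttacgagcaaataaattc
AT4G12510 had 1 TATAAA match, starting 113 bases before the gene start, and AT3G59370 had 3. PROPEP1, PROPEP4 and BDG1 had 1 W-box each, starting 6, 195 and 170 bases before the gene start. The genes printed were picked among members that hold the letters. In the motif search described below, TATAAA was in 51.4% of members, beside 53.1% of genes over the level minimum. The W-box letters were in 25.7%, beside 31.8%, and the site II letters in 37.1%, beside 25.6%.

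**Figure D1:**
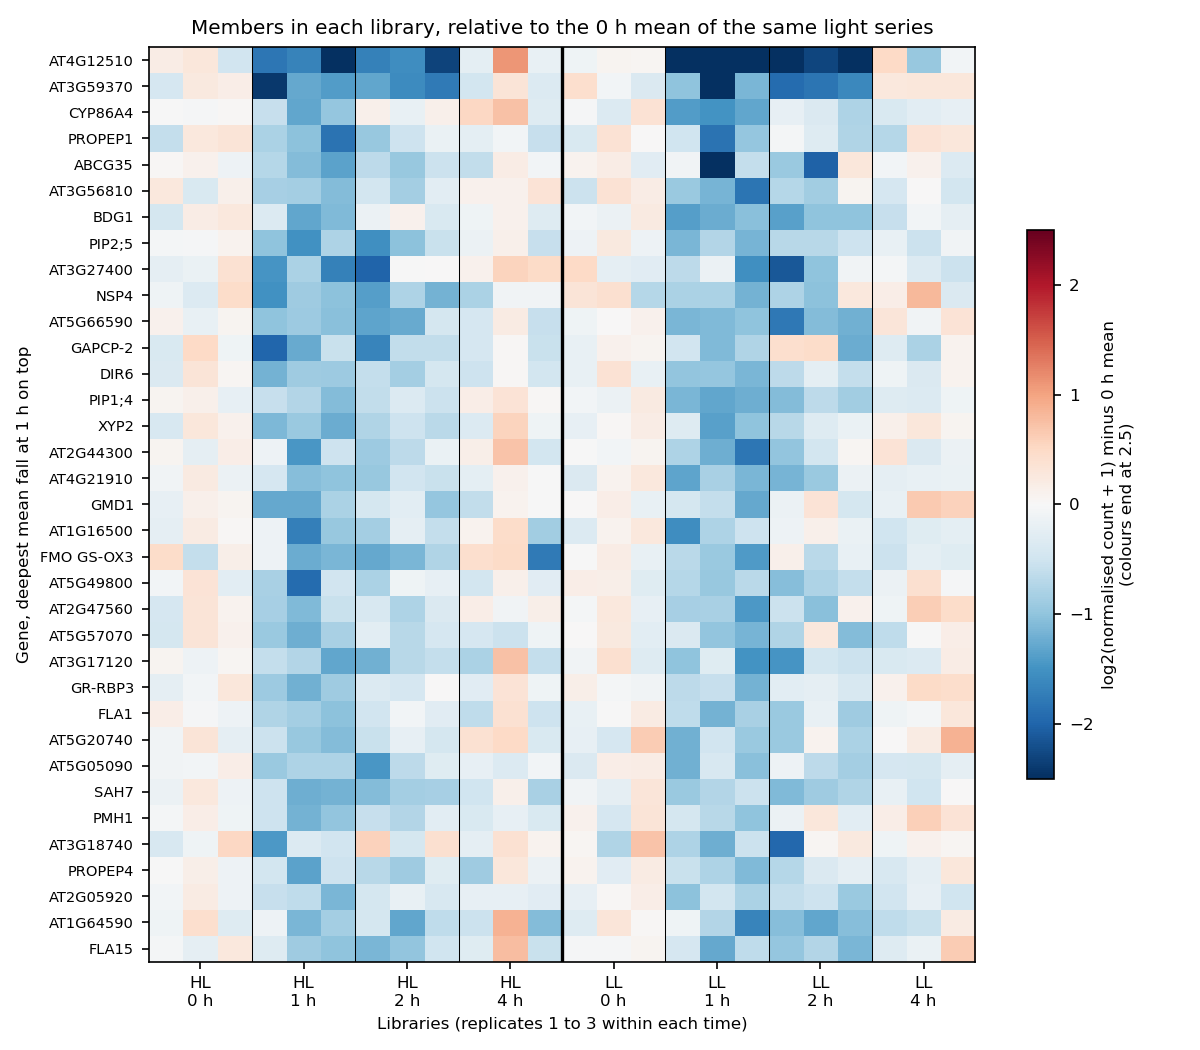
Each row is a member, ordered by its mean 1 h minus 0 h difference, and each column is a library, HL on the left and LL on the right. Colour gives log2(normalised count + 1) minus the 0 h mean of the same light series, and ends at 2.5. In all 6 libraries of 1 h, 35 of 35 members lay below their 0 h mean.

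Across the 35 members the 1 h minus 0 h difference had a median of -0.93 in HL (range -2.25 to -0.70) and -0.92 in LL (range -3.59 to -0.71). In each of the 3 libraries of HL 1 h and of LL 1 h, 35 of 35 members lay below their 0 h mean, with a library median of -1.11 to -0.78 in HL and -1.15 to -0.78 in LL. The 3 values of 1 h were all below the 3 values of 0 h for 29 members in HL and 30 in LL, where 18.0% and 19.8% of the 10349 genes did not overlap in that direction. By edgeR's quasi-likelihood test with Benjamini-Hochberg adjustment over all genes, 14 members were called lower at 1 h in HL and 13 in LL (11 and 11 by DESeq2). Of all genes tested, 5.05% in HL and 7.01% in LL were called lower. The rule used these libraries, so nothing is read from the counts of members beside those shares, other than that 21 members in HL and 22 in LL met the rule without a call.

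The deepest dip belonged to AT4G12510, a gene of the bifunctional inhibitor and lipid transfer family. In HL it had 19.5, 21.1 and 12 normalised counts at 0 h, 4.15, 4.7 and 0.853 at 1 h, 4.59, 5.13 and 2.65 at 2 h and then 14.3, 37.6 and 14.9 at 4 h. In the LL series there were 19.2, 22.1 and 21.5 at 0 h, 1.53, 1.39 and 0 at 1 h, 1.06, 3.45 and 0.837 at 2 h and then 30, 10.4 and 20 at 4 h. In both series the libraries of 1 h and 2 h were all below those of 0 h, and the 4 h libraries overlapped those of 0 h. The counts behind these values were small: the LL 1 h libraries held 2, 1 and 0 counts, 3 in sum against 62 at 0 h, a ratio per library total of 0.051 (95% exact interval 0.0102 to 0.156, counting error only). In HL the sums were 10 counts at 1 h against 48 at 0 h, a ratio of 0.2 (0.0901 to 0.4).

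A neighbour of AT4G12510 was read separately, because the counts of near-identical genes can be uncertain. AT4G12520 lies 3077 bases away, and its transcript was 93.3% identical to that of AT4G12510 over 660 aligned bases. That value is for whole transcripts. In the search for copies of the members' last 500 bases, AT4G12520 was not found. It had 37, 27.7 and 51.1 normalised counts in HL at 0 h, 17.6, 10.3 and 6.82 at 1 h, 15.6, 20.5 and 22.1 at 2 h and then 46.6, 99 and 48.5 at 4 h. LL libraries held 29.7, 52.2 and 32.8 at 0 h, 14.5, 6.97 and 3.68 at 1 h, 3.18, 23 and 15.1 at 2 h and then 75.4, 45.7 and 49.9 at 4 h. Its 1 h minus 0 h differences were -1.70 in HL and -2.19 in LL, and it is no member because its 4 h minus 0 h differences were 0.68 in HL and 0.57 in LL, above the window. It was looked at after its values were seen, and how far the similarity affected the counts of both genes was not tested.

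AT3G59370, annotated as a vacuolar calcium-binding-like protein, had the next deepest dip. It had 19.5, 31.7 and 30 normalised counts in HL at 0 h, 4.15, 10.3 and 9.38 at 1 h, 10.1, 8.21 and 7.07 at 2 h and then 19, 33.6 and 20.8 at 4 h. The LL series had 20.1, 14.2 and 11.4 at 0 h, 6.87, 1.39 and 6.14 at 1 h, 3.18, 3.45 and 4.19 at 2 h and then 18, 18.4 and 18.3 at 4 h. Its 2 h minus 0 h differences were -1.55 in HL and -1.79 in LL, close to those of 1 h (-1.70 and -1.63), and at 4 h it was among its 0 h values.

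**Figure D2:**
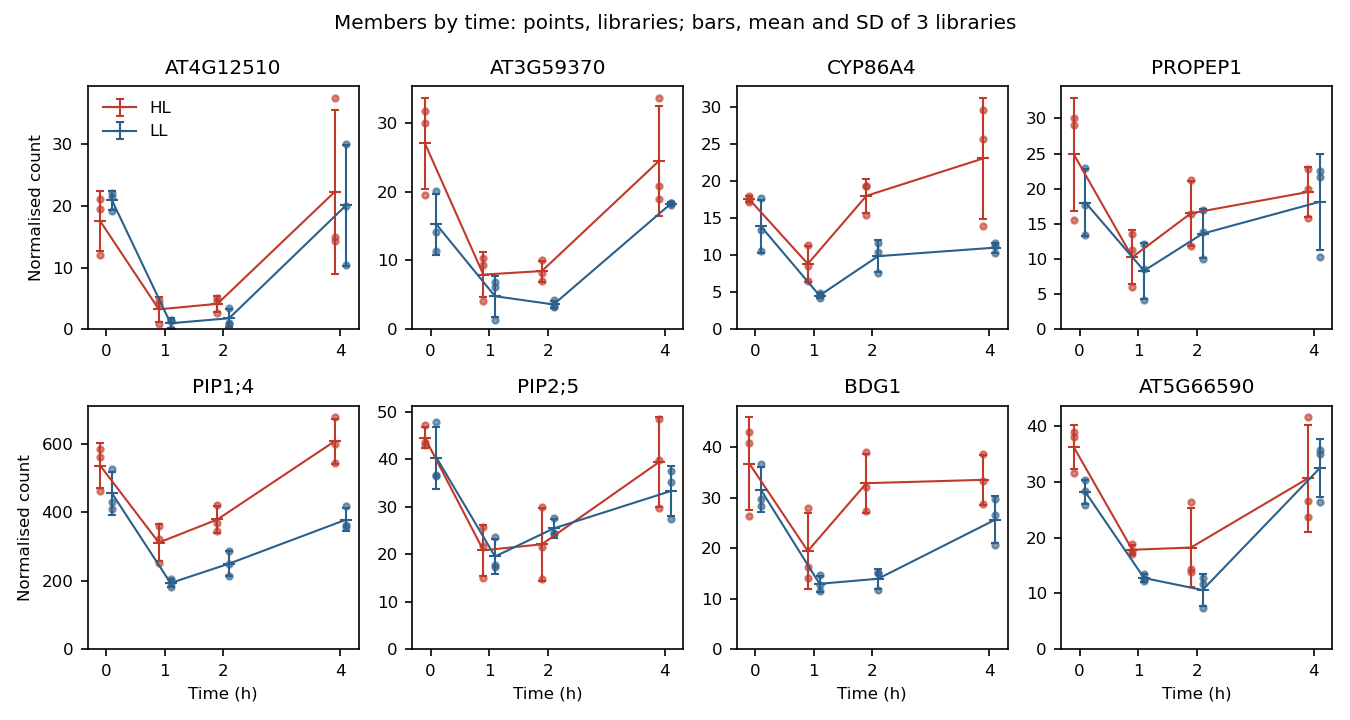
Normalised counts of 8 members against time in h, HL in red and LL in blue. Points are libraries and lines join the means, with bars of 1 SD over 3 libraries. AT4G12510, AT3G59370 and AT5G66590 lay below their 0 h values at both 1 h and 2 h in both series, whereas CYP86A4 at 2 h of HL was among its 0 h values.

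The other members of the lipid and cuticle group, 5 genes with AT4G12510 (groups were read from the annotation with the members known, and were not tested), included both genes of cuticle formation. CYP86A4 is a cytochrome P450 of a family that makes hydroxylated fatty acids for cutin. It had 17.5, 17.2 and 18 normalised counts in HL at 0 h, 11.4, 6.58 and 8.53 at 1 h, 19.3, 15.4 and 19.4 at 2 h and then 25.7, 29.7 and 13.9 at 4 h. The LL values were 13.4, 10.6 and 17.7 at 0 h, 4.58, 4.18 and 4.91 at 1 h, 11.7, 10.4 and 7.54 at 2 h and then 10.3, 11.2 and 11.6 at 4 h. The 1 h libraries were below those of 0 h in both series, and by 2 h CYP86A4 was among its 0 h values in HL.

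BDG1 encodes an extracellular hydrolase of the epidermis that normal cuticles need. It had 26.3, 40.9 and 43.1 normalised counts in HL at 0 h, 28, 14.1 and 16.2 at 1 h, 32.2, 39 and 27.4 at 2 h and then 33.3, 38.6 and 28.7 at 4 h. In the LL series there were 29.7, 28.3 and 36.6 at 0 h, 11.5, 12.6 and 14.7 at 1 h, 11.7, 15 and 15.1 at 2 h and then 20.6, 29.7 and 26.6 at 4 h. Replicate 1 of HL 1 h lay inside the range of HL 0 h, and the LL groups at 1 h and 2 h did not overlap that at 0 h.

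XYP2 and AT2G44300 encode lipid transfer proteins that the annotation places at the plasma membrane by an anchor. XYP2 had 41.5, 47.9 and 38.4 normalised counts at HL 1 h, against 69.2, 112 and 99.1 at HL 0 h. At LL 1 h it had 51.9, 25.1 and 31.9, against 56.6, 66.4 and 74.5 at LL 0 h, with no overlap in either series. Over 208 bases of its 3′ end XYP2 was 98.6% identical to AT3G26740, so that its counts are uncertain. AT2G44300 was the member nearest inside the dip limit, with 1 h minus 0 h differences of -0.70 in HL and -1.27 in LL.

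The largest group, 9 members, encodes wall and secreted proteins. FLA1 and FLA15 are fasciclin-like arabinogalactan proteins and SAH7 is of the pollen Ole e 1 allergen and extensin family. FLA1 had 97.4, 84.5 and 79.1 normalised counts in HL at 0 h, 50.8, 47.9 and 41.8 at 1 h, 61.6, 83.1 and 70.7 at 2 h and then 55.1, 113 and 60.4 at 4 h. LL libraries held 59.5, 67.3 and 78.3 at 0 h, 43.5, 29.3 and 38.1 at 1 h, 35, 59.9 and 36 at 2 h and then 63.4, 65.8 and 83.2 at 4 h. The 1 h libraries of FLA1 lay below those of 0 h in both series. SAH7 had 66.2, 88.5 and 67.1 in HL at 0 h, 50.8, 31 and 31.6 at 1 h and then 34, 40 and 40.6 at 2 h, and 52.8, 47.8 and 69.5 in LL at 0 h, 29, 33.5 and 38.1 at 1 h and then 25.5, 29.9 and 32.7 at 2 h. SAH7 was no nearer its start at 2 h than at 1 h in LL, and its 4 h minus 0 h difference in HL (-0.39) was the closest of all members to the edge of the window.

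AT5G66590 encodes a secreted protein of the CAP family, to which the defence protein PR1 belongs. It had 39, 31.7 and 38.1 normalised counts in HL at 0 h, 17.6, 18.8 and 17.1 at 1 h, 13.8, 14.4 and 26.5 at 2 h and then 26.6, 41.6 and 23.8 at 4 h. The LL series had 25.9, 28.3 and 30.3 at 0 h, 12.2, 12.6 and 13.5 at 1 h, 7.43, 12.7 and 11.7 at 2 h and then 35.1, 26.5 and 35.8 at 4 h. Neither the 1 h nor the 2 h libraries overlapped those of 0 h. AT3G27400, of the pectin lyase-like family, had 1 h minus 0 h differences of -1.32 in HL and -0.78 in LL, and its LL libraries at 1 h (7.64, 11.2 and 3.68 normalised counts) overlapped those at 0 h (18.2, 10.6 and 10.1).

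AT2G05920 and DIR6 had the highest counts of the wall group. AT2G05920, a subtilase, which is a secreted protease, had 108, 104 and 73.4 normalised counts at HL 1 h, against 155, 186 and 148 at HL 0 h, and 67.2, 100 and 78.6 at LL 1 h, against 119, 141 and 154 at LL 0 h. DIR6, a dirigent protein, a class that steers the coupling of phenolic monomers into lignans, had 51.8, 62.9 and 62.3 at HL 1 h, against 91.6, 147 and 122 at HL 0 h, and 46.6, 47.4 and 41.7 at LL 1 h, against 82.5, 121 and 82.1 at LL 0 h. GMD1, an enzyme of GDP-fucose synthesis, had differences of -1.12 in HL and -0.78 in LL, and AT5G20740, an invertase or pectin methylesterase inhibitor, -0.86 and -0.87. For AT2G05920 and DIR6 no library of 1 h reached the lowest of 0 h.

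Of the 4 membrane transport members, the aquaporin PIP1;4 had the most counts of any member. It had 561, 586 and 463 normalised counts in HL at 0 h, 359, 323 and 253 at 1 h, 347, 422 and 369 at 2 h and then 600, 678 and 546 at 4 h. The LL values were 431, 410 and 527 at 0 h, 204, 183 and 193 at 1 h, 214, 287 and 249 at 2 h and then 362, 356 and 419 at 4 h. Both the 1 h and the 2 h libraries lay below those of 0 h in each series. PIP2;5, another plasma membrane aquaporin, had 42.9, 43.6 and 47.1 in HL at 0 h, 21.8, 15 and 25.6 at 1 h, 14.7, 21.5 and 30 at 2 h and then 39.9, 48.5 and 29.7 at 4 h. In the LL series there were 36.5, 47.8 and 36.6 at 0 h, 17.6, 23.7 and 17.2 at 1 h, 24.4, 24.2 and 27.6 at 2 h and then 35.1, 27.3 and 37.4 at 4 h. PIP2;5 met the rule whichever single library was left out, as did AT4G21910, a MATE efflux transporter.

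AT4G21910 had 70.5, 45.1 and 46.9 normalised counts at HL 1 h, against 89.6, 112 and 86.1 at HL 0 h, and 35.9, 51.6 and 40.5 at LL 1 h, against 71, 96.5 and 110 at LL 0 h. ABCG35, an ABC transporter of the pleiotropic drug resistance type, had 12.4, 9.39 and 7.68 at HL 1 h, against 21.4, 22.5 and 19 at HL 0 h. At LL 1 h ABCG35 had 16, 1.39 and 11, against 18.2, 19.5 and 13.9 at LL 0 h, so that the groups overlapped, replicate 2 of LL 1 h was far below the others and edgeR did not call it in LL.

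The 4 members of defence peptides and glucosinolates were PROPEP1, PROPEP4, NSP4 and FMO GS-OX3. PROPEP1 had 15.6, 29.1 and 30 normalised counts in HL at 0 h, 13.5, 11.3 and 5.97 at 1 h, 11.9, 16.4 and 21.2 at 2 h and then 20, 22.8 and 15.8 at 4 h. LL libraries held 13.4, 23 and 17.7 at 0 h, 12.2, 4.18 and 8.59 at 1 h, 17, 13.8 and 10 at 2 h and then 10.3, 22.5 and 21.6 at 4 h. The 1 h libraries of PROPEP1 were below those of 0 h in both series, and its 2 h libraries overlapped them. PROPEP4 had 19.7, 10.3 and 18.8 at HL 1 h, against 27.3, 30.4 and 25 at HL 0 h, and 13, 11.2 and 8.59 at LL 1 h, against 21.1, 15.9 and 22.7 at LL 0 h. NSP4, a nitrile specifier protein that directs glucosinolate breakdown, had differences of -1.14 in HL and -0.92 in LL, and FMO GS-OX3, which oxygenates the sulphur of glucosinolate side chains, -0.84 and -1.01. The 3′ end of NSP4 was 95.5% identical to that of AT3G16400 over 133 bases.

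The 6 organelle, RNA, ribosome and regulatory members were GAPCP-2, a glyceraldehyde-3-phosphate dehydrogenase of plastids, PMH1, a mitochondrial RNA helicase, GR-RBP3, a glycine-rich RNA-binding protein that the annotation places in mitochondria, AT3G18740, of the ribosomal protein L7Ae and L30e family, AT2G47560, a RING protein, and AT5G05090, a homeodomain-like protein. GR-RBP3 had 50.7, 56.8 and 73.1 normalised counts in HL at 0 h, 31.1, 25.4 and 31.6 at 1 h, 46.9, 44.1 and 60.1 at 2 h and then 48.5, 75.2 and 55.4 at 4 h. The LL series had 53.7, 46.9 and 45.5 at 0 h, 30.6, 32.1 and 20.9 at 1 h, 40.3, 41.4 and 36.8 at 2 h and then 52.3, 68.2 and 66.6 at 4 h. GR-RBP3 was the 1 member already inside the window of 0.4 at 2 h in both series. The 1 h minus 0 h differences of the 6 ranged from -1.27 to -0.75 in HL and from -1.02 to -0.71 in LL. The remaining 7 members carried a family name or no known role: AT1G16500, AT3G17120, AT3G56810, AT5G57070, AT5G49800 and AT1G64590 beside AT3G59370. AT3G56810, which the annotation places in the chloroplast, had 10.4, 10.3 and 8.53 at HL 1 h, against 23.4, 14.5 and 21 at HL 0 h, and 9.93, 8.37 and 4.91 at LL 1 h, against 13.4, 25.7 and 22.7 at LL 0 h. AT1G64590 was the member of lowest level, with a highest group mean of 10.1 in the LL table.

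At 2 h most members lay between their 1 h and 0 h levels. The 2 h minus 0 h difference had a median of -0.63 in HL and -0.55 in LL, and 33 members in HL and 35 in LL were still below 0 h. As a share of the 1 h difference, the part regained by 2 h had a median of 37.1% in HL (quartiles 7.10% and 53.6%, range -25.5% to 123%) and 37.1% in LL (10.1% and 62.2%, range -37.6% to 94.9%). A negative share is a member lower at 2 h than at 1 h. Without 1 library of its series, the median ran from 27.1% to 41.1% in HL and from 31.4% to 50.5% in LL. At 2 h 31 of 35 members in HL and 28 in LL were above their 1 h mean. The members were chosen for low values in the same 1 h libraries, which alone favours a higher 2 h value and a positive share regained, so these are given as a description. The 3 values of 2 h were all below the 3 of 0 h for 22 members in HL (19.0% of all genes) and 14 in LL (19.4%), and all above the 3 of 1 h for 7 in HL (10.4%) and 9 in LL (7.59%). edgeR called 4 members lower at 2 h than at 0 h in HL (NSP4, PIP2;5, AT3G59370 and AT4G12510), where 7.20% of all genes were, and 4 in LL (BDG1, AT3G59370, AT4G12510 and AT5G66590), where 8.15% were. The comparison shares its 0 h libraries with the rule. Between 2 h and 1 h no member was called in either series by edgeR or by DESeq2, which left 8 members in HL and 22 in LL without an adjusted p. At an unadjusted p under 0.05 there were 7 members in HL and 9 in LL. Genes called higher at 2 h than at 1 h were 0.170% of all in HL and 0.165% in LL.

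The members divided by how much had returned at 2 h. In both series 8 members were still at or under -0.7 at 2 h: ABCG35, AT1G64590, AT3G17120, FLA15, AT3G59370, SAH7, AT4G12510 and AT5G66590. The 5 lowest mean shares regained were those of AT1G64590 (-24.5%), FLA15 (-19.9%), AT5G66590 (-14.3%), SAH7 (-10.1%) and AT3G59370 (-0.528%). The 5 highest were those of CYP86A4 (85.4%), AT3G18740 (78.5%), GMD1 (69.7%), GR-RBP3 (69.4%) and PMH1 (68.0%). FLA15 had 34.1, 30.4 and 43.1 normalised counts in HL at 0 h, 28, 18.8 and 17.1 at 1 h and then 15.6, 17.4 and 24.7 at 2 h, and in LL 21.1, 21.2 and 22.7 at 0 h, 16, 8.37 and 13.5 at 1 h and then 10.6, 12.7 and 9.21 at 2 h. PMH1 had 77.9, 89.8 and 74.1 in HL at 0 h, 56, 34.8 and 40.1 at 1 h and then 53.3, 48.2 and 66.3 at 2 h, and in LL 61.4, 42.5 and 72 at 0 h, 42, 34.9 and 28.2 at 1 h and then 52, 70.2 and 47.7 at 2 h. FLA15 was lower at 2 h than at 1 h in the mean of both series, while PMH1 at 2 h of LL overlapped its 0 h libraries. With 3 libraries and counts of this size, neighbours in this order were not separated by a test.

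**Figure D3:**
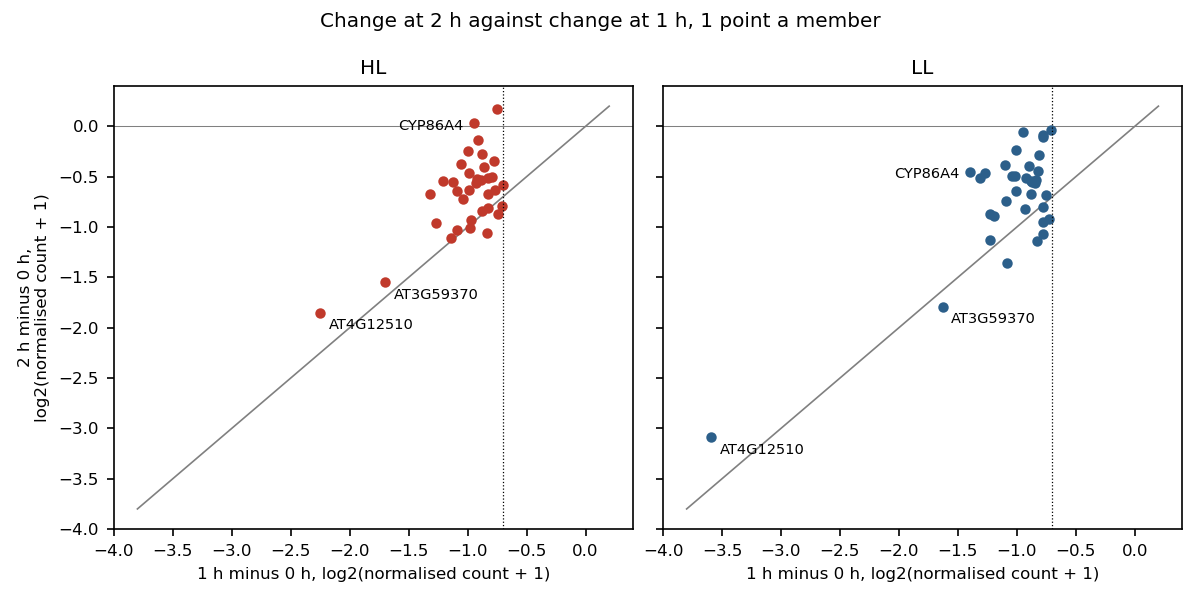
The 2 h minus 0 h difference of each member against its 1 h minus 0 h difference, both on the log2(normalised count + 1) scale, HL on the left and LL on the right. On the grey diagonal 2 h equals 1 h, and the dotted line is the dip limit of -0.7. In HL 31 of 35 points and in LL 28 of 35 lie above the diagonal.

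At 4 h the median difference from 0 h was -0.18 in HL (range -0.39 to 0.38) and -0.13 in LL (range -0.39 to 0.37), as the rule required. No member was called at 4 h against 0 h in either series by edgeR or DESeq2, and at an unadjusted p under 0.05 there was 1 in LL and 0 in HL. Of all genes tested, 15.7% in HL and 16.5% in LL were called. Between 4 h and 2 h, AT3G59370 and AT4G12510 were called higher in HL (1.42% of all genes were), and the same pair and AT5G66590 in LL (0.503%). The HL count of 2 was 1 by DESeq2, 1 without replicate 2 of HL 4 h and 5 without replicate 3 of HL 4 h, and the 0 h, 1 h and 4 h libraries had all served the choice of members. The 3 values of 4 h were all above the 3 of 2 h for 10 members in HL (10.9% of all genes) and 14 in LL (9.79%). How complete the return in HL was depended on replicate 2 of HL 4 h. In the 3 libraries of HL 4 h, in order of replicate, the median over members relative to the 0 h mean was -0.29, 0.20 and -0.31, and 26, 7 and 30 members lay below 0 h. Without replicate 2 the median 4 h minus 0 h difference in HL was -0.35, 23 members were inside the window and 12 were below it. In the LL libraries of 4 h the medians were -0.19, -0.16 and 0.06, and without any one of them 28 to 31 members stayed inside the window.

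Among the 7664 genes over the level minimum, 627 had a 1 h minus 0 h difference of at most -0.7 in both tables. At 4 h 500 of them (79.7%) were below the window in both tables, 35 (5.58%) were inside it in both, which are the members, and 7 (1.12%) were above it in both. Of the 418 genes with the opposite 1 h difference, at least 0.7 in both tables, 34 (8.13%) were inside the window in both at 4 h and 294 (70.3%) were above it in both. On either side, fewer genes were back inside the window than were still displaced in the direction of 1 h.

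Genes chosen in one table alone were read in the other, whose libraries had no part in the choice beyond the level minimum. The LL table alone gave 174 genes over the level minimum that met the rule, and the HL table gave 144. Of the 174 chosen in LL, 66 (37.9%) had a 1 h minus 0 h difference of at most -0.7 in HL, where 12.2% of the 7664 genes did, and 35 (20.1%) met the whole rule there, where 1.88% did. In HL 29 of the 174 (16.7%) were called lower at 1 h by edgeR, where 6.45% of the 7664 genes were, and 1 was called higher. Of the 144 chosen in HL, 83 (57.6%) had such a difference in LL, where 15.2% did, and 35 (24.3%) met the whole rule, where 2.27% did. In LL 35 of the 144 (24.3%) were called lower, where 7.89% were, and 0 higher. The median log2 fold change at 1 h was -0.53 in HL for the genes chosen in LL and -0.79 in LL for the genes chosen in HL, beside 0.02 over all 7664 genes in each. So most genes that met the rule in one table did not meet it in the other.

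The comparison of HL 2 h with LL 2 h asked whether the members differed between the light levels on their way back, and its libraries took no part in the dip and return limits. Over 35 members the median log2 fold change of HL over LL was 0.15, 23 were positive and 12 negative, and over all 10349 genes the median was 0.01. At 0 h, before the light treatment, the members' median was 0.15 as well. BDG1 was the 1 member called (1 by DESeq2), beside 2.95% of all genes, and 7 members had an unadjusted p under 0.05. BDG1 had 19.0 ± 3.37 CPM in HL 2 h and 8.94 ± 1.27 in LL 2 h (SD, n = 3), a log2 fold change of 1.07 with a standard error of 0.27 (edgeR, adjusted p = 0.0166), and its HL and LL libraries of 2 h did not overlap. At 0 h it had 20.9 ± 5.0 CPM in HL and 20.1 ± 2.68 in LL. In LL BDG1 had regained 7.94% of its dip by 2 h and in HL 84.6%. These shares use the 0 h and 1 h libraries of the rule, so they are a description. The change of BDG1 from 0 h to 2 h differed between HL and LL by 1.01 in log2 (SE 0.363), which edgeR did not call. The BDG1 call between HL 2 h and LL 2 h was lost without replicate 2 of HL 2 h (log2 fold change 0.93, edgeR adjusted p = 0.0823). It was also lost without replicate 1 of LL 2 h (0.98, edgeR adjusted p = 0.093). BDG1 overlaps its neighbour AT1G64660 on the other strand by 38 bases. Whether the counting used strand is not given in the sources used here, so that the 7 members with such an overlap are uncertain: GMD1 overlaps AT5G09595 by 1581 bases, AT5G05090 overlaps AT5G05085 by 1263, and AT2G47560, GR-RBP3, SAH7, BDG1 and AT3G18740 overlap a neighbour by 6 to 239. Similar 3′ ends also leave some doubt for PIP1;4 (91.1% identical to AT2G07155 over 257 bases) and PMH1 (91.4% identical to AT3G22330 over 105). Their identity was lower than that of XYP2 and NSP4 to the copies named above. AT2G07155 was not among the genes in both tables, whereas the copies named for XYP2, NSP4 and PMH1 were.

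The next members by p-value did not pass the adjustment. PIP1;4 had 220 ± 22.5 CPM in HL 2 h and 161 ± 23.7 in LL 2 h (log2 fold change 0.45, SE 0.145, edgeR adjusted p = 0.0649). AT2G05920 had 74.1 ± 6.94 CPM in HL and 55.1 ± 8.21 in LL (log2 fold change 0.43, SE 0.166, edgeR adjusted p = 0.132). CYP86A4 had 10.4 ± 1.32 CPM in HL and 6.34 ± 1.35 in LL (0.74, SE 0.308, edgeR adjusted p = 0.172), and FLA1 had 41.6 ± 6.34 CPM in HL and 28.1 ± 9.11 in LL (0.58, SE 0.241, edgeR adjusted p = 0.172). AT3G59370 had a log2 fold change of 1.04 (SE 0.479, edgeR adjusted p = 0.231) and AT5G20740 one of 0.69 (SE 0.322, edgeR adjusted p = 0.24). The lowest log2 fold change was that of FMO GS-OX3 (-0.96, SE 0.495, edgeR adjusted p = 0.298). The highest was that of AT4G12510 (1.08, SE 0.811, edgeR adjusted p = 0.516), with BDG1 next to it. When the change from 0 h to 2 h was compared between HL and LL, 0 members were called by edgeR and by DESeq2 (15 without an adjusted p in DESeq2), 1 at an unadjusted p under 0.05, beside 0.995% of all genes. That comparison uses the 0 h libraries of the rule. The standard errors of the members' log2 fold changes at 2 h ranged from 0.145 in PIP1;4 to 0.811 in AT4G12510. For AT4G12510 a difference of 2-fold was little more than its standard error. In other members of few counts, such as FMO GS-OX3, a difference near 2-fold could go uncalled.

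**Figure D4:**
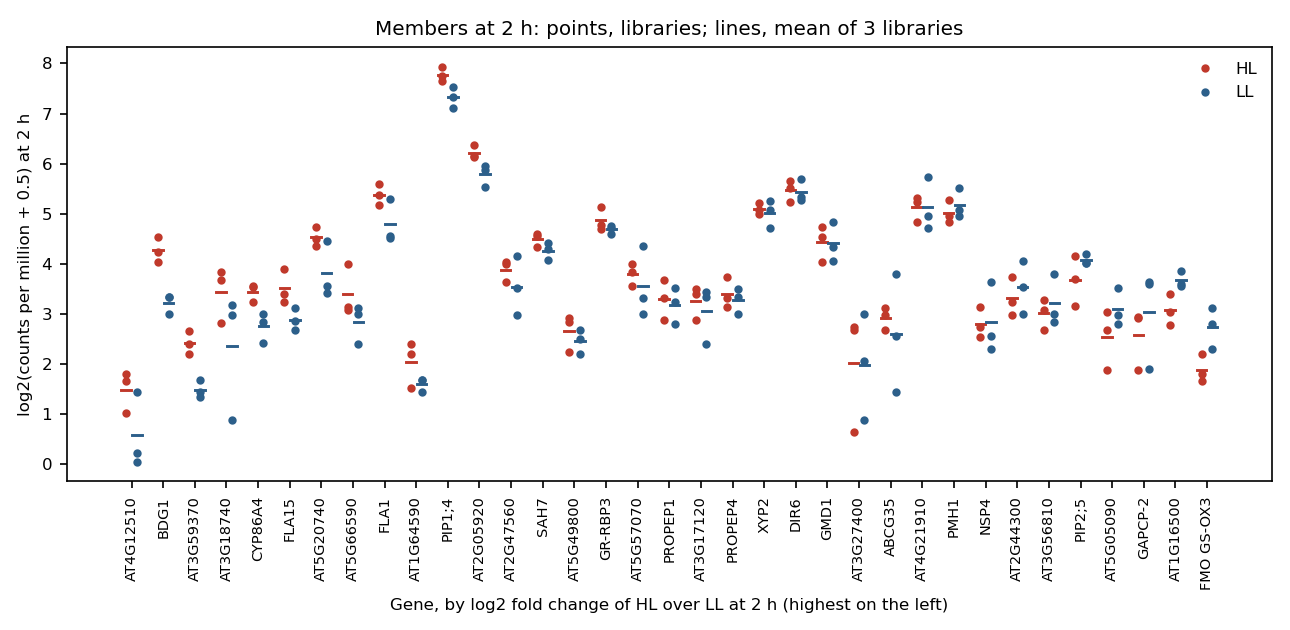
The 35 members at 2 h, in log2(CPM + 0.5) on a scale common to both series, with HL in red to the left of LL in blue. Points are libraries and lines are means of 3 libraries. BDG1 is the member whose difference passed the adjusted test, and most others overlap.

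The limits of the rule cut through a continuous spread. The members nearest inside the dip limit had their less negative difference at -0.703 (AT2G44300), -0.710 (AT1G64590) and -0.712 (PMH1), and the genes nearest outside it at -0.684 (EMB269), -0.663 (AT4G21870) and -0.651 (IPMI1). For the window the largest absolute 4 h minus 0 h difference was 0.393 in SAH7, 0.391 in AT2G05920 and 0.380 in AT3G27400 inside, and 0.410 in GLL22, 0.419 in PXY and 0.423 in AT5G45670 outside. For the level, AT1G64590 (10.1), FMO GS-OX3 (11.6) and AT3G18740 (12.2) were inside, and AT1G30080 (8.53), AT4G25410 (7.91) and AT4G16140 (7.69) outside.

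Against 34 gene lists of pathways and families, 27 held no member, 3 held 1 and 4 held 2 or more. The lists without a member included Aux/IAA, jasmonate, WRKY, NAC, MYB, clock, light harvesting and heat shock genes. Of the 35 members 13 (37.1%) were in some list, beside 18.3% of the 7664 genes over the level minimum. Of all genes tested at 1 h, 5.05% were called lower and 3.96% higher in HL, and 7.01% lower and 3.42% higher in LL. At 4 h 8.17% were lower and 7.51% higher in HL, and 10.8% lower and 5.74% higher in LL. The list of lipid transfer proteins held 3 members (XYP2, AT2G44300 and AT4G12510) of 45 measured genes, of which 9 were called lower and 4 higher at 1 h in HL, and 10 lower and 2 higher in LL. At 4 h the list had 9 lower and 5 higher in HL, and 13 lower and 6 higher in LL. The list of arabinogalactan proteins and extensins held 3 members (FLA1, SAH7 and FLA15) of 74 genes, with 15 lower and 1 higher at 1 h in HL and 11 lower and 1 higher in LL. At 4 h 19 were lower and 8 higher in HL, and 23 lower and 5 higher in LL. The median log2 fold change of this list in HL was -0.43 at both 1 h and 4 h. In LL it was -0.55 at 1 h, and -0.29 at 4 h. The list of wall-modifying enzymes held 2 members (AT3G27400 and AT5G20740) of 144 genes, with 26 lower and 5 higher at 1 h in HL and 28 lower and 7 higher in LL. At 4 h 31 were lower and 20 higher in HL, and 40 lower and 21 higher in LL.

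The list of aquaporins held PIP2;5 and PIP1;4 of 28 genes. At 1 h 3 of the 28 were called lower and 2 higher in HL, and 3 lower and 1 higher in LL, with list medians of 0.03 in HL and -0.09 in LL. At 4 h 3 were lower and 0 higher in HL, and 1 lower and 1 higher in LL.

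What the members shared beside the rule was read from the annotation, with terms picked after the members were known and without a test. A location was annotated for 20 of the 35 members and for 4877 of the 7664 genes over the level minimum. The endomembrane system, the route of secreted proteins, was named for 8 of the 20 (40%, beside 11.6% of the 4877), an anchor to a membrane for 3 (15%, beside 1.11%), the plasma membrane for 5 (25%, beside 17.5%) and the cell wall for 2 (10%, beside 5.15%). Any of these, the extracellular region or the apoplast was named for 14 (70%, beside 33.8%). The chloroplast was named for 2 (10%, beside 23.4%) and the nucleus for 0, where 9.94% of the 4877 had it. The members were short in exons: 21 of 35 (60%) had 1 or 2 exons, beside 33.7% of 7518 protein-coding genes over the level minimum, with a median of 2 beside 4. The median transcript length was 1510 bases beside 1755.5. They were spread over the 5 chromosomes, with 7, 4, 9, 5 and 10 genes on chromosomes 1, 2, 3, 4 and 5.

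In a window from 250 bases before to 50 after the gene start, 13 motifs were searched on both strands for 35 members and for 7517 genes over the level minimum. Site II letters were in 13 members (37.1%, beside 25.6%), among them PIP2;5, FLA1, GR-RBP3, ABCG35 and AT5G66590. The ABRE letters ACGTGT or ACGTGG, known from genes that answer to abscisic acid, were in 9 (25.7%, beside 21.9%), and the G-box letters CACGTG, which can overlap them, in 4 (11.4%, beside 9.17%). The W-box letters were in 9 (25.7%, beside 31.8%), among them PROPEP1, PROPEP4, BDG1 and PIP1;4. TATAAA was in 18 (51.4%, beside 53.1%). The CCA1 site AAAATCT was in 2 (5.71%, beside 18.9%), and the letters GATAAG, the I-box of light-regulated genes, and CGCGTT were in 0 members, beside 15.9% and 3.90%. The remaining 5 motifs were the evening element AAAATATCT, in 1 member (2.86%, beside 3.21%), the telo-box AAACCCTA in 2 (5.71%, beside 4.90%), TGTCTC in 5 (14.3%, beside 12.4%), GCCGAC or ACCGAC in 2 (5.71%, beside 9.68%) and GCCGCC in 1 (2.86%, beside 2.42%). These are matches of letters in a window, not sites shown to be used.

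Markers of shoot and root were read beside the members. Of 8 root markers 7 were measured, and at 1 h 5 of the 7 were higher than at 0 h in HL and 5 in LL, with medians of 0.41 in HL and 0.27 in LL. Their summed level was 435 to 602 normalised counts at HL 1 h and 397 to 701 at HL 0 h, and 395 to 454 at LL 1 h and 303 to 459 at LL 0 h, so the groups overlapped. The root marker AGP24 was lower, with a difference of -0.89 in HL and -0.59 in LL. The summed level of 8 shoot markers, which are photosynthesis genes, was 29823 to 42140 at HL 1 h and 45006 to 54537 at HL 0 h, and 31858 to 35251 at LL 1 h and 55277 to 58205 at LL 0 h. At 4 h it was 35268 to 46429 in HL and 18886 to 23737 in LL. At 2 h it was 26447 to 29457 in HL and 20872 to 23903 in LL. At 1 h 3 of the 8 shoot markers were higher than at 0 h in HL and 0 in LL. Their median differences were -0.47 in HL and -1.04 in LL. The 3 were GAPA-1 (0.89), RBCS1A (0.49) and PRK (0.06). The sums were carried mainly by LHCA1 and RBCS1A, and single shoot markers differed: at LL 4 h PRK (0.11), GLDP1 (-0.16) and GAPA-1 (-0.24) were near their 0 h level, while LHCA1 had a difference of -2.39. Their part in the members' dip was not tested.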

How the data were processed

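Whole *Ch1* seedlings were profiled in 24 libraries, in 8 groups of 3. The authors trimmed reads with cutadapt, mapped them with STAR 2.4.2a to Araport 11, counted them with HTSeq and kept genes with at least 5 reads in some sample. The deposited tables, one of 12 libraries each for HL (11166 genes) and LL (10930), hold counts, a normalised signal (counts divided by a DESeq2 size factor) and regularised log2 values by the authors, which were not used here. The authors' fold changes and p-values were not used. Whether molecular identifiers or strand entered the counting is not given in the sources used here.

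The rule was applied to the normalised values, with a pseudocount of 1. Members and gene lists were chosen with earlier results of these data known. Counts were tested with edgeR 4.0.16 (R 4.3.3; TMM scaling, quasi-likelihood test, Benjamini-Hochberg adjustment over all genes), with one fit of 12 libraries per table and one of 24 for HL against LL over the 10349 shared genes. A call needs an adjusted p under 0.05 and at least 2-fold. The fits were tested on simulated data. Standard errors were taken from the fold change and its F statistic. Alternatives were DESeq2 1.42.0, RLE scaling, edgeR's low-count filter, a replicate block, each library left out, no fold limit, a pseudocount of 8 and other limits of the rule.

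Named genes were the 10 largest dips by the mean of both tables, the 6 highest levels, members called between HL 2 h and LL 2 h, up to 3 members by level of each list holding at least 3, the 5 highest and 5 lowest shares regained, and the 3 genes nearest each limit on either side. Other members are named to account for all 35.

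Replicates were separate libraries: pairs of one group differed by 2.51 to 10.1 times sampling noise (chi-square per degree of freedom). With totals from 1163870 to 2070855 counts, precision is limited by counting for members near 10 counts, and exact intervals (95%) cover counting error only. The authors used Araport 11, an annotation of TAIR10. Coordinates, sequences and locations come from the RefSeq annotation of TAIR10.1. AT3G18740 is called by its ID since its symbol and product there disagree. Copies were sought with blastn 2.17.0 (at least 90% identity over 60 bases of the last 500).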

Additional observations from a re-analysis of the deposited data

How the results depend on the processing

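The number of members depended on the rule's settings: 14 genes with a pseudocount of 8 (11 of them among the 35), 25 with TMM-scaled CPM in place of the deposited normalised counts (all 25 among the 35), 5 with a dip limit of -1, 18 with a window of 0.3 and 20 when every group mean had to reach 10. Without 1 library the count ran from 26 (without replicate 2 of HL 4 h) to 38, and 23 to 35 of the 35 remained. PIP2;5 and AT4G21910 were members whichever library was left out.

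Members called lower at 1 h numbered 7 to 16 in HL and 8 to 13 in LL when 1 library was left out (14 and 13 with all). In HL the count was 8 without replicate 2 of HL 0 h, 7 without replicate 3 of HL 0 h and 8 without replicate 2 of HL 1 h, and in LL 8 without replicate 2 of LL 0 h. Lower at 2 h than at 0 h were 3 to 7 members in HL, with 7 without replicate 3 of HL 2 h, and 4 to 6 in LL. Higher at 4 h than at 2 h were 1 to 5 in HL, with 1 without replicate 2 of HL 4 h and 5 without replicate 3 of HL 4 h, and 3 to 4 in LL. DESeq2 called 1 member in HL there. The BDG1 call between HL 2 h and LL 2 h made 1 member, and 0 without replicate 2 of HL 2 h or replicate 1 of LL 2 h. Its log2 fold change ran from 0.93 to 1.19, with an adjusted p of 0.0823 and 0.093 without those libraries. With no fold limit there were 23 members lower at 1 h in HL, 10 lower at 2 h in HL, 11 lower at 2 h in LL and 4 higher at 4 h than at 2 h in HL. Without the fold limit, 27.6% of the genes chosen in LL were lower at 1 h of HL (12.7% of the 7664 genes), and 38.2% of those chosen in HL at 1 h of LL (13.1%). With the fold limit and 1 library left out, the shares ran from 12.1% to 17.2% in HL and from 20.8% to 25.7% in LL. The cause of these shifts was not tested.

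Over 18 pairs of same-numbered libraries in each series the correlation of deviations ran from -0.15 to 0.17 in HL and from -0.33 to 0.29 in LL. The medians were 0.02 in HL and 0.06 in LL, beside -0.03 and -0.02 for libraries of other numbers. Such low values cannot tell whether same-numbered libraries shared a culture, plate or day, which the labels do not give. With the replicate block, 15 members were called lower at 1 h in HL and 11 in LL, and the BDG1 log2 fold change was 1.07. No count of called members moved by more than 1.5 times under the block. Over 17 results, 296 alternative values kept their direction and call and stayed within 1.5 times the value reported or within the replicate spread, 20 moved further, 2 lost a call and 0 reversed.

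Depth limits many members: 16 of 35 in HL and 18 of 35 in LL had a median under 20 counts, so that dips near the limit cannot be told from somewhat smaller ones.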
